A study of Mus musculus with 8 samples.

Results

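Platelet-like barcodes are droplet barcodes of mouse bone marrow that fell below the gene filter of the study but carried RNA of several platelet genes. They were selected on measured values. A barcode had to hold at least 50 and fewer than 500 detected genes, at most 15% of its unique molecular identifiers (UMIs, the counted molecules) on mitochondrial genes, and at least 1 UMI of 3 or more of 8 rule genes, namely Ppbp, Pf4, Gp9, Tubb1, Alox12, Clec1b, Treml1 and Gp1bb. The rule found 398 of 48290 barcodes. Of the 4769 barcodes within the same gene range and mitochondrial limit, 597 held none of the 8 genes and are called marker-free here, and 3774 held 1 or 2. Because the 8 genes chose the members, every contrast of levels between these classes is given as a description with no test. Only the difference in age effect between classes was tested.

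Platelets are small cells without a nucleus that are shed by megakaryocytes (Mk) into marrow sinusoids. They carry RNA inherited from the Mk, granules filled with chemokines and clotting proteins, adhesion receptors, and a cytoskeleton of actin, myosin and a ring of microtubules. In single-cell libraries they give few UMIs and few genes, so a filter on gene number meets them together with cell debris and with droplets that hold only free RNA.

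Marrow of femurs and tibias of C57BL/6 mice was treated to lyse red cells, stained for CD41 and CD42d, sorted with magnetic beads and then by flow cytometry, and run on the 10x Genomics platform. Young mice were 3 months old and old mice over 24 months, with 1 pool per age and sex: 6 young and 6 old females, and 6 young and 5 old males. Each pool gave a femur and a tibia library. The 2 libraries of a group therefore share their mice, and the spread within a group is that between bones of 1 pool. The p-values of the gene tests on libraries measure only that spread. Permutation tests over the 8 libraries count the 2 libraries of a pool as separate units. In all value lists below, the femur library comes before the tibia library.

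Members were unevenly spread over the libraries. The rule found 46 and 73 barcodes in young and 42 and 26 in old females, and 107 and 79 in young and 10 and 15 in old males. The members' summed UMIs were 28300 and 49916 in young and 31072 and 20472 in old females, and 81660 and 73583 in young and 7328 and 9698 in old males, out of library totals between 20707363 and 104436964 UMIs. The old male libraries stood apart by holding the fewest members and the fewest UMIs, and every old male value rests on these 25 barcodes. Between libraries, 657 of all barcodes (1.36%) and 6 of the 398 members (1.51%) had a sequence found in another library too.

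Members lay in the upper part of the permitted gene range. They held 194 genes or more (median 388) and 500 to 2184 UMIs (median 690.5), and 195 of them had at least 300 and fewer than 400 genes and 171 had 400 or more. The matrices hold no barcode under 500 UMIs, so the depth of a member is bounded from below by the deposited files and not by the rule. Median UMIs per member ranged from 577 in the young female femur library to 843 in the young male tibia library. The median mitochondrial share of a member was 5.66%.

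Among the rule genes, the chemokine genes Pf4 (platelet factor 4) and Ppbp (the precursor of CXCL7) were the most often detected, in 391 (98.2%) and 339 (85.2%) of the 398 members. Alox12, the platelet lipoxygenase, was found in 64.3%, and Clec1b, the podoplanin receptor CLEC-2, in 51.5%. Gp9, a subunit of the receptor for von Willebrand factor, was found in 42.2% and Treml1, a receptor stored in α-granules, in 32.9%. The lowest shares were those of Tubb1, the β1-tubulin of the microtubule ring (16.1%), and of Gp1bb, another subunit of that receptor (12.1%). Pf4 and Ppbp occurred together in 334 members (83.9%), and Tubb1 and Gp1bb in 6 (1.51%). These shares describe the selection and are no finding. Of all barcodes within the same gene range and mitochondrial limit, Pf4 was detected in 61.3% to 97.4% per library and Ppbp in 4.33% to 46.2%. Pf4 alone therefore set members little apart from the rest.

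The promoters of 5 of these markers are shown because the rule rests on these genes. Each run gives the 150 bases before the RefSeq transcription start, 5′ to 3′ on the gene's own strand (GRCm38.p6, all 5 on the plus strand), at chr5:90772285-90772434 for Pf4, chr5:90768368-90768517 for Ppbp, chr6:87777920-87778069 for Gp9, chr6:129397147-129397296 for Clec1b and chr2:174450445-174450594 for Tubb1. Capitals mark AGGAAG or its reverse complement, a core bound by ETS factors such as FLI1, and would mark AGATAA, which is the core bound by GATA factors, on either strand.
Pf4: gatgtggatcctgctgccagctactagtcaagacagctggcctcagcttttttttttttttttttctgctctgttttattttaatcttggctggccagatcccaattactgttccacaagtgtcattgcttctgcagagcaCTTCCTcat
Ppbp: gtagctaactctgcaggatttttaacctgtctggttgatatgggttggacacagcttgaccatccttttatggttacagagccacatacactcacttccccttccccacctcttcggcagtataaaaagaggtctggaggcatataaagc
Gp9: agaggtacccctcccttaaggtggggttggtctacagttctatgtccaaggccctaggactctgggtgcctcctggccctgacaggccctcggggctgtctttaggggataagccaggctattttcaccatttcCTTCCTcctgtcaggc
Clec1b: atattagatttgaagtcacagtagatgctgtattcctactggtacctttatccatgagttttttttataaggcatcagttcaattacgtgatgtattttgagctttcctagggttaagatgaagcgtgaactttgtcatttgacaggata
Tubb1: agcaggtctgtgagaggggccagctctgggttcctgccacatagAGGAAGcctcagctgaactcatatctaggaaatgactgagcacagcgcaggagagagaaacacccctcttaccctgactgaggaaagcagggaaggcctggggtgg
In the 250 bases before the start, AGGAAG was found on either strand for 3 of the 8 rule genes (37.5%), as against 32.3% of 27025 genes with a RefSeq promoter. AGATAA was found for 0 of the 8, as against 11.4%. The match describes these letters in this window only.

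Pf4 gave the most UMIs of the rule genes in the summed members of all 8 libraries. Its level was 7633 and 10638 CPM (counts scaled to an equal total of all genes in each library) in young and 5407 and 6643 in old females, and 5437 and 8698 in young and 10781 and 10827 in old males. Ppbp stood at 2085 and 3326 CPM in young and 3476 and 3566 in old females, and 3625 and 6768 in young and 6414 and 3815 in old males. The old and young libraries overlapped for both genes. Because members had to carry rule genes, these levels are a description. Of the 8 rule genes, 7 stayed in the gene tests of age and sex below. There 0 of them passed, and no conclusion is drawn from that.

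Over all libraries together, barcodes just inside and just outside the rule differed little in platelet RNA on the gene and mitochondrial limits, and more on the number of rule genes. Members with 400 or more genes carried 1.62% of their UMIs on rule genes and 2.59% on platelet receptor and granule genes, while the 138 barcodes with at least 500 and fewer than 600 genes and 3 or more rule genes carried 1.67% and 2.46%. Single libraries differed more, in opposite directions. Receptor and granule genes held 152 of 8078 UMIs inside and 34 of 4399 outside this limit in the old female tibia library. In the old female femur library they held 101 of 15089 and 227 of 18562. The 83 members with over 10% mitochondrial UMIs carried 1.71% and 3.21%, and the 45 barcodes with 15 to 20% carried 1.78% and 3.23%. The 186 members with exactly 3 rule genes carried 1.12% and 1.19%, against 0.853% and 0.698% in the 704 barcodes with 2. Sorting by the number of rule genes itself raises the share on these genes. Without the mitochondrial limit the rule would have found 739 barcodes.

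Platelet genes that the rule did not use took more of the pooled UMIs at each step in the number of rule genes, but not in each library. Over all libraries together, receptor genes (24 genes such as Itga2b and Cd9) took 0.135% of UMIs in marker-free barcodes, 0.477% in members with 3 rule genes, 1.06% in those with 4, and 2.05% in the 120 members with 5 or more. Granule cargo genes (20 genes such as Nrgn and Thbs1) took 0.187%, 0.708%, 1.41% and 2.50% at the same steps. Cytoskeleton genes (18 genes such as Tmsb4x and Actb) took 1.42%, 4.68%, 6.46% and 9.69%, and signalling genes (18 genes such as Plek and Gng11) took 0.392%, 1.36%, 1.62% and 1.97%. In the old female tibia library, receptor genes went from 0.393% at 3 rule genes to 0% at 4, where 3 barcodes remained, and cytoskeleton genes from 9.19% at 4 to 6.14% at 5 or more. In the old female femur library cytoskeleton genes went from 5.32% at 3 to 4.76% at 4, over 6 barcodes. Megakaryocyte transcription factors (15 genes such as Fli1 and Mef2c) went the other way in the pooled values above 2 rule genes, from 0.456% at 2 to 0.206% at 5 or more. Of the 120 members with 5 or more, 50 came from the young male tibia library (0.162%), while in the old male femur library the share was 0.357% at 2 and 0.568% at 5 or more, where 3 barcodes remained. Deeper barcodes reach more rule genes, and the part of depth in these steps was not tested.

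**Figure D1:**
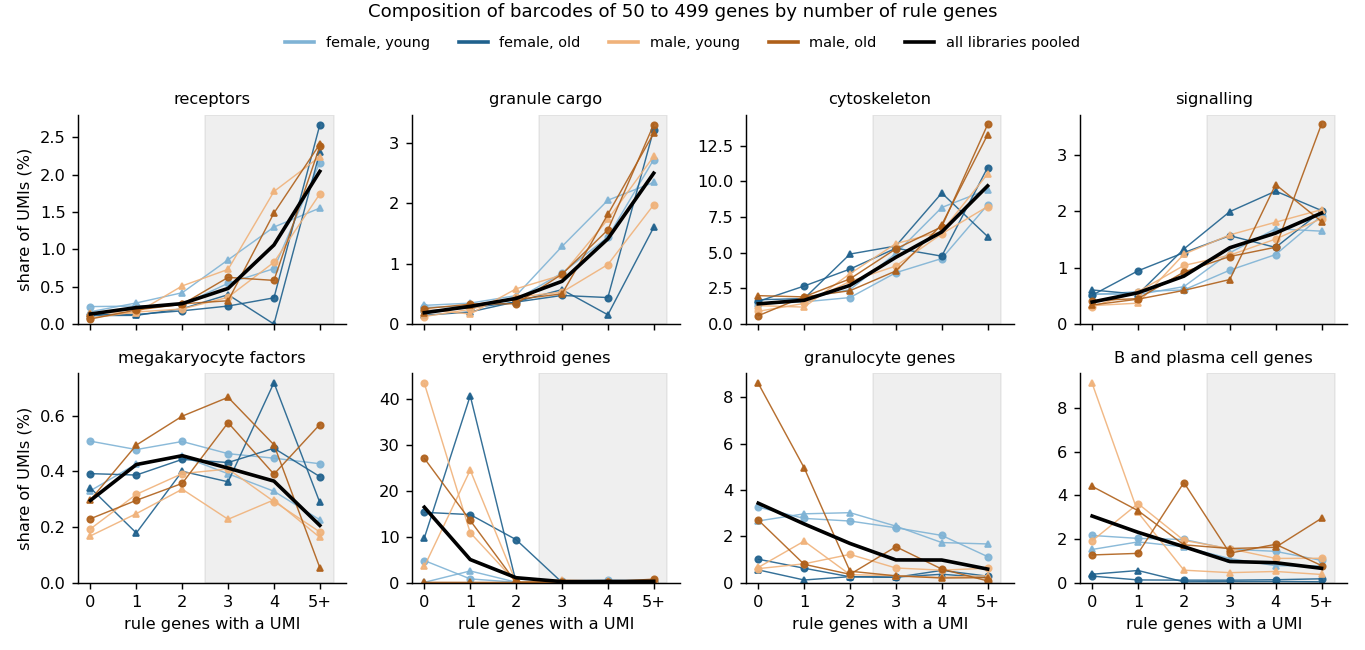
Share of UMIs (%, y axis) on 8 gene lists in barcodes of 50 to fewer than 500 genes, by the number of rule genes with a UMI (x axis). Thin lines are the 8 libraries (circles femur, triangles tibia), the black line pools them, and grey shading marks the platelet-like barcodes. Receptor genes reach 2.05% and cytoskeleton genes 9.69% at 5 or more rule genes in the pooled line, and erythroid genes 0.275% there against 16.4% with no rule gene, where the libraries spread from 0.0516% to 43.4%. Of the 597 barcodes with no rule gene, 28 held at least 10% of their UMIs on erythroid genes. In the young female tibia library the erythroid share is higher at 5 or more rule genes (0.425%) than with none (0.0516%).

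A count of 3 rule genes was rare in deeper cells of other types once these were thinned to the same depth. With each barcode thinned to 500 UMIs, 3 or more rule genes were found in 8 of 5095 retained barcodes with B cell genes (0.157%) and in 6 of 3257 with granulocyte genes (0.184%), where retained means 500 to 12000 genes and at most 15% mitochondrial UMIs. In low-gene barcodes the same count was found in 314 of 4769 (6.58%). No barcode had to be left out for depth. Before thinning, median UMIs per library were 5117.5 to 17128 in the B cell class and 8295.5 to 16889 in the granulocyte class. These cells therefore do not show how often free RNA gives 3 rule genes in a low-gene droplet, which was not tested.

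The share of barcodes that were platelet-like was lowest in old males. It was 0.699% and 1.29% in young and 0.978% and 1.03% in old females, and 1.14% and 0.991% in young and 0.176% and 0.243% in old males. Old males lay below all 6 other libraries, whose 95% Wilson intervals (counting error only) began at 0.524% or higher, while old and young females overlapped. Old libraries averaged 0.607% ± 0.461 (SD, n = 4) and young libraries 1.03% ± 0.252 (n = 4), a difference of -0.422 percentage points that an exact two-sided permutation test over libraries did not separate from the spread (p = 0.2, adjusted p = 0.429 over 3 comparisons). Males and females differed by -0.362 points (exact permutation p = 0.286, n = 4 each), and tibia minus femur averaged 0.141 points over the 4 pools and was positive in 3 of them (exact paired permutation p = 0.625, of which 0.125 is the smallest 4 pools allow). The smallest p that 70 assignments of 8 libraries allow is 0.0286. Leaving out single libraries could turn the sign of the bone difference and moved the sex difference, with the ranges given under the processing. Without the mitochondrial limit the shares were 0.957% and 2.07% in young and 2.26% and 1.90% in old females. In males they were 1.64% and 2.15% in young and 0.597% and 0.892% in old. Old males were still lowest, and old minus young was -0.289 points (exact permutation p = 0.6, n = 4 each). Fewer platelet-like droplets, more of them over the mitochondrial limit, less RNA in each and a different recovery in the sort cannot be told apart in these libraries.

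The share depended on its base. Of the low-gene barcodes, members made up 2.46% and 8.94% in young and 18.0% and 21.8% in old females, and 13.2% and 38.0% in young and 9.17% and 2.50% in old males, so that the order of the groups differed from that over all barcodes. Members with 5 or more rule genes were 0.0760% and 0.371% of barcodes in young and 0.0931% and 0.238% in old females, and 0.298% and 0.628% in young and 0.0527% and 0.0487% in old males. In this stricter class the tibia lay above the femur in 3 pools, and the old-minus-young difference was -0.235 points (exact permutation p = 0.0857, n = 4 each). Of the members themselves, 63.3% had 5 or more rule genes in the young male tibia library and 9.52% in the old female femur library.

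**Figure D2:**
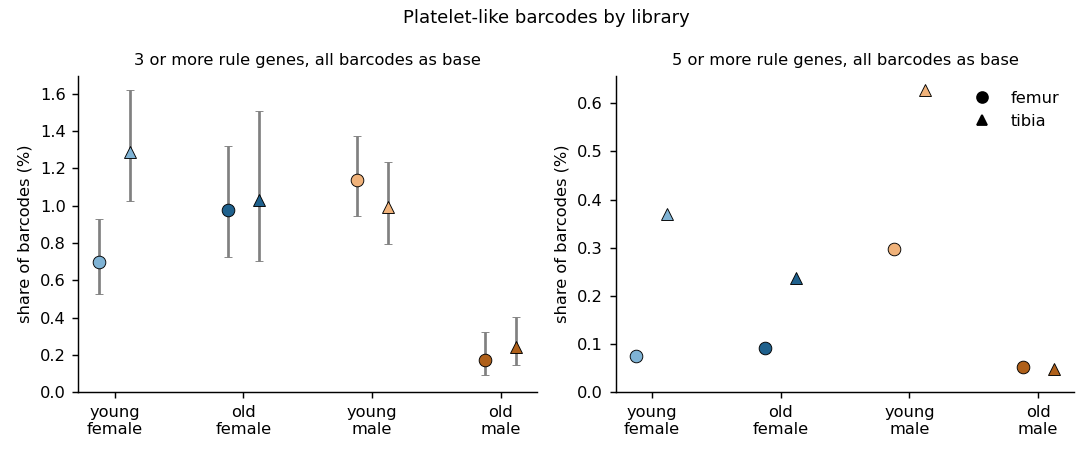
Share of all barcodes of a library (%, y axis) that were platelet-like, by group (x axis), with 3 or more rule genes on the left and 5 or more on the right. Circles are femur and triangles tibia libraries, and bars on the left are 95% Wilson intervals. The old male libraries, at 0.176% and 0.243% on the left, lie below all others.

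Members were rich in ribosomal RNA, as marker-free barcodes were too, and in cytoskeletal transcripts. The feature Rn18s-rs5, which collects reads of 18S ribosomal RNA, took 14.4% ± 8.71 of their UMIs (SD, n = 8), ahead of Tmsb4x, which encodes the actin-binding thymosin β4, with 3.14% ± 1.11, and of Actb (β-actin) with 1.49% ± 0.467. Rn18s-rs5 took 8.33% and 7.03% in young and 21.3% and 23.1% in old females, and 22.5% and 22.97% in young and 4.07% and 6.02% in old males. The 2 bones of a pool lay close together, and old and young libraries crossed over between the sexes. In all retained barcodes too, old females and young males were highest, at a lower level, where the 3 ribosomal RNA features took 2.63% to 3.63% in young and 5.50% to 6.38% in old females, and 3.85% to 4.17% in young and 1.17% to 2.56% in old males. Gene levels given as CPM are shares of a total that holds these features, and their part in the differences below was measured by leaving them out, as given with the counts.

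Ribosomal protein genes took 9.44% ± 2.59 of UMIs in old and 7.17% ± 3.04 in young libraries (SD, n = 4 each), a difference that did not exceed the spread of the libraries (exact two-sided permutation p = 0.314, adjusted p = 0.943 over 4 measures). Mitochondrial genes took 6.13% ± 1.68 in old and 6.43% ± 1.16 in young libraries, values that the limit of 15% in the rule holds down. Without that limit, mitochondrial genes took 67.7% ± 7.87 in old and 27.1% ± 12.6 in young libraries (exact two-sided permutation p = 0.0286, the smallest possible, adjusted p = 0.0571, n = 4 each). The 4 libraries of an age come from 1 female and 1 male pool, and the test treats each library as a unit. The 8 rule genes, whose share the rule constrains, took 1.73% ± 0.530 in old and 1.76% ± 0.459 in young libraries.

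Members were compared with marker-free barcodes gene by gene, as a description. Of 1925 genes that reached 100 CPM in either class, 235 (12.2%) were higher in members in all 8 libraries and 72 (3.74%) lower, counts that include the 8 rule genes. A gene could enter through the members alone, where platelet genes are high, so the list counts are no support for a direction. They stand beside a median log2 ratio of 0.10 over the 1925 genes. Marker-free sums rested on 17 barcodes (9686 UMIs) in the young female tibia and 15 (11761 UMIs) in the old male femur library. In the young male femur library haemoglobin genes held 43.1% of marker-free UMIs, which lowers the CPM of all other genes there. Of 24 receptor genes, 17 reached 100 CPM and 12 were higher in 8 of 8 (median log2 ratio 2.94). Of the granule cargo genes, 13 of 17 were higher (median 2.28), of the cytoskeleton genes 15 of 18 (median 2.35) and of the signalling genes 8 of 17 (median 1.45). Of 11 megakaryocyte transcription factor genes above 100 CPM, 0 were higher or lower in all 8 libraries (median 0.81).

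The leading genes outside the rule joined well known platelet genes with less familiar ones. Ctla2a, which encodes a cysteine protease inhibitor, had 2129 UMIs in members and 84 in marker-free barcodes, with log2 ratios of 2.75 to 5.80 over the libraries (median 5.06). Nrgn, which encodes the calmodulin-binding protein neurogranin, had 1431 and 60 UMIs (2.94 to 6.52, median 4.94), and Lsm12 had 597 and 23 UMIs (2.98 to 6.87, median 4.97). Gas2l1, which encodes a protein that links actin and microtubules, had 263 and 13 UMIs (median 4.97). All 4 genes had a higher level in the summed members of every library, but for Ctla2a single barcodes carried much of it in old females. Of its UMIs, 30 of 45 came from 1 of 42 members in the old female femur library, and 28 of 46 from 1 of 26 in the old female tibia library. The next genes in order were Tsc22d1, Myl9 (myosin regulatory light chain), Cd226 (an adhesion receptor) and Mmd.

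Among receptor and granule genes, Itga2b, Gp5, Thbs1 and Vwf were also higher in all 8 libraries, at lower median ratios than Ctla2a, Nrgn, Lsm12 and Gas2l1. Itga2b, which encodes the αIIb subunit of the fibrinogen receptor (CD41, used in the sort), had 779 UMIs in members against 103 in marker-free barcodes (median log2 ratio 3.75), and Gp5, which encodes CD42d, also used in the sort, had 132 against 4 (median 4.07). With 4 UMIs, Gp5 was at 0 in the marker-free barcodes of some libraries. There its ratio rests on the prior count of 0.5. Thbs1, which encodes thrombospondin, had 489 against 15 (median 4.23) and Vwf (von Willebrand factor) 245 against 31 (median 2.83). In members, at least 1 UMI was found of Itga2b in 56.3%, of Itgb3, its partner subunit, in 37.4%, of Gp5 in 21.1%, and of Selp, the granule membrane protein P-selectin, in 6.78%. Gata1, which encodes the main Mk transcription factor, was found in 6.03% and Mki67, a proliferation gene, in 7.04%.

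Genes with a lower ratio in every library included Dock2, a cytoskeletal regulator of white cells, with 29 UMIs in members and 185 in marker-free barcodes, Itgam (CD11b) with 9 and 67, Csf3r, the G-CSF receptor, with 6 and 69, and Prkcb with 18 and 143. The immediate early genes Fos, Junb and Jund were lower in 8 of 8 libraries, with a median log2 ratio of -1.56 for Fos. For Dock2, Itgam, Csf3r, Prkcb and Fos some libraries had 0 UMIs in members, and there the direction rests on the prior count of 0.5 added before the ratio. The first 4 of these reached the limit of 100 CPM through marker-free barcodes alone. Of the 183 genes higher in members outside the rule that had a RefSeq promoter, 31.7% held AGGAAG and 8.20% AGATAA in the 250 bases before the start, as against 34.9% and 7.42% of 1536 genes compared.

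Set against retained platelet-gene cells, granule genes took 1.42% ± 0.555 of UMIs in members and 0.751% ± 0.164 in those cells (SD, n = 8), cytoskeleton genes 6.75% ± 1.56 and 3.55% ± 1.04, and ribosomal protein genes 8.30% ± 2.88 and 13.9% ± 4.07. The 396 retained platelet-gene cells passed the study's filter and held 3 or more rule genes after thinning to 500 UMIs, and their median UMI number per library was between 1367 and 14034. Their summed values weigh the deepest cells most. In the old female femur library 1 cell held 154116 of 469061 UMIs, and in the young male femur library 1 held 146540 of 575002. Of 2035 genes, 96 (4.72%) were higher in members in 8 of 8 libraries and 163 (8.01%) were lower, around a median log2 ratio of -0.43. Of 76 ribosomal protein genes, 37 were lower in 8 of 8 and 0 higher (median -0.74), while against marker-free barcodes 0 were lower or higher. Top2a, which encodes a topoisomerase of dividing cells, had 43 UMIs in members and 1260 in retained cells, and 0 in the members of 3 libraries, where the direction rests on the prior count of 0.5.

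Among platelet genes the direction differed by gene. Nrgn (median log2 ratio 2.21), Thbs1 (1.80), Gng11 (2.18), Alox12 (2.42) and Clec1b (1.26) were higher in members in 8 of 8 libraries, as were Snap23, Mmd, Tln1, Tpm4, Zyx and Gp6. Pf4 was lower in 8 of 8 (-0.86), as were the signalling genes Plcg2 and Tbxas1 and the receptor gene Ptger3. Rap1b, a small GTPase of integrin activation, was higher in 4 libraries and lower in 4 (median -0.05), and Vwf was higher in 3 and lower in 5 (median -0.35). Fth1, which encodes ferritin heavy chain, was higher in 8 of 8 (median 1.37). Members and retained cells were both chosen through the rule genes, at different depths, so the values of those genes reflect the choice too.

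**Figure D3:**
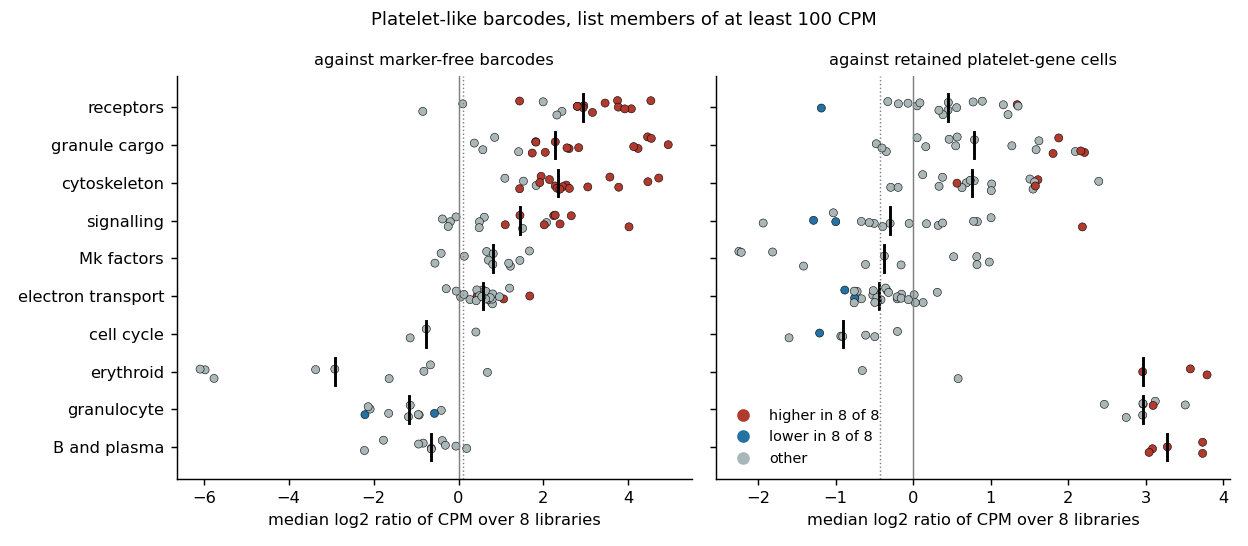
Median log2 ratio of CPM over the 8 libraries (x axis, linear in log2) of platelet-like barcodes against marker-free barcodes (left) and against retained platelet-gene cells (right), for members of 10 gene lists (y axis) that reached 100 CPM. Points are genes, coloured by whether all 8 libraries share the direction, black ticks are list medians, and the dotted line is the median of all genes. Receptor genes have a median of 2.94 on the left, and B and plasma cell genes a median of 3.28 on the right.

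RNA of other blood cells was present in members and moved with the library. Granulocyte genes (15 genes led by S100a9, all detected) took 2.07% and 2.01% of UMIs in young and 0.277% and 0.244% in old females, and 0.607% and 0.287% in young and 0.914% and 0.247% in old males. B and plasma cell genes (15 genes led by Igkc, all detected) took 1.42% and 0.906% in young and 0.119% and 0.0440% in old females, and 1.32% and 0.405% in young and 1.16% and 1.85% in old males. Old female libraries were thus lowest for B and plasma cell genes, as they were among all retained barcodes, with 0.460% and 0.383% against 1.15% to 2.37% in the other libraries. Granulocyte genes did not follow the retained barcodes in this way, where they took 5.69% and 4.65% in old and 3.18% and 3.399% in young females. Erythroid genes (13 genes led by Hba-a1, 12 detected) took 0.0515% to 0.420% of UMIs in members and 0.0516% to 43.4% in marker-free barcodes.

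These genes were found in many members. At least 1% of UMIs fell on granulocyte genes in 132 of 398 members (33.2%), on B and plasma cell genes in 168 (42.2%) and on erythroid genes in 17 (4.27%), whereas at least 10% was reached in 1 member, for granulocyte genes. In marker-free barcodes the shares at 1% were higher, at 41.9%, 65.8% and 5.86%, and in retained platelet-gene cells lower, at 12.4%, 9.34% and 2.53%. In the same order, at least 10% was reached in 53, 23 and 28 of 597 marker-free barcodes, and in 2, 0 and 0 of 396 retained platelet-gene cells. Against those cells the immunoglobulin genes Igkc, Ighm, Igha and Jchain and the B cell gene Cd79a were higher in members in 8 of 8 libraries (median log2 ratio 3.09 for Igkc), as were S100a8 (2.97), Retnlg and the haemoglobin genes Hba-a1 (3.79), Hba-a2 and Hbb-bs. Monocyte and macrophage genes took 0.110% ± 0.0613 of members' UMIs (SD, n = 8), basophil and mast cell genes 0.0699% ± 0.0759, stroma and endothelium genes 0.0447% ± 0.0226 and T and NK cell genes 0.00644% ± 0.00733.

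**Figure D4:**
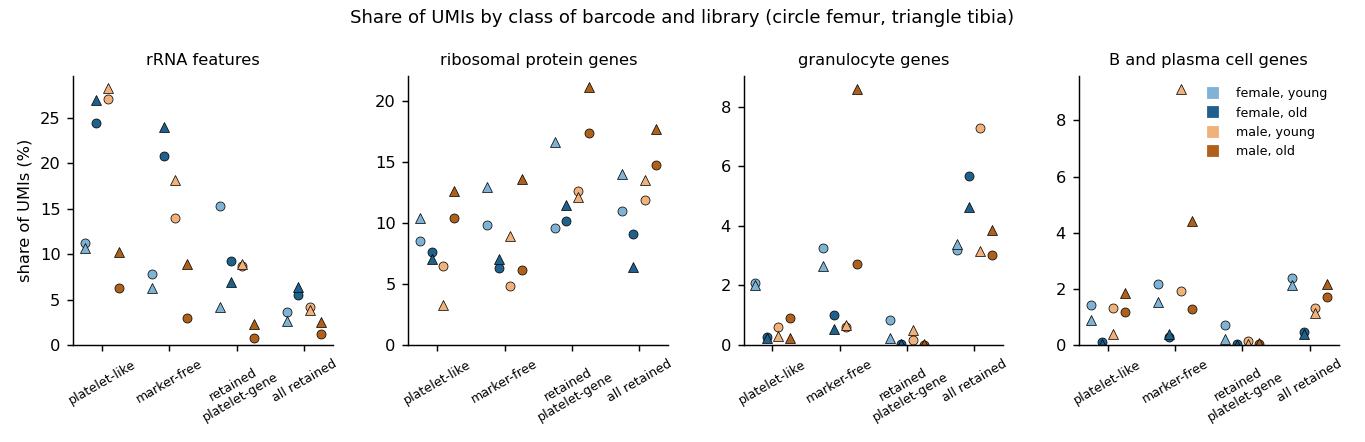
Share of UMIs (%, y axis) on ribosomal RNA features, ribosomal protein genes, granulocyte genes and B and plasma cell genes, by class of barcode (x axis). Each point is a library, coloured by group, with circles for femur and triangles for tibia. In platelet-like barcodes the ribosomal RNA features lie between 6.28% and 28.2%, with old females and young males on top.

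With age, all genes that passed the test in this fit were lower in old libraries. In summed members, edgeR's quasi-likelihood test with Benjamini-Hochberg adjustment called 30 of 584 genes (5.14%) between 4 old and 4 young libraries, 0 higher and 30 lower in old. Granulocyte, B and plasma cell and erythroid lists held 7 of the 30, from 15 tested genes. Platelet lists (rule genes, receptors, granule, cytoskeleton and signalling) held 6, all lower, from 54 tested genes, 7 of which were rule genes. Since the rule genes chose the members, nothing is concluded from them, and 0 of these 7 passed. Summed to the 4 pools, which are the units of mice, the test called 0 genes (17 at an unadjusted p under 0.05), and without the ribosomal RNA features it called 19 genes, all of them among the 30. The count fell to 16, 14 or 13 without the young female tibia, the old female femur or the old female tibia library, and was 73 without the young male femur library.

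The 30 genes overlapped widely between the age groups in plain CPM. In 2 of them, Itgb1 and Mmrn1, named here after their values were seen, all 4 old libraries lay below all 4 young ones, as against 4.62% of the 584 tested genes whose age groups did not overlap in either direction. Itgb1, which encodes integrin β1, stood at 1272 and 1402 CPM in young and 451 and 342 in old females, and 906 and 2106 in young and 409 and 516 in old males (log2 fold change -1.96 ± 0.44 SE, edgeR adjusted p = 0.000758). Mmrn1, which encodes the granule protein multimerin, stood at 495 and 381, 97 and 293, 502 and 856, and 136 and 309 CPM in the same order (-1.63 ± 0.53, edgeR adjusted p = 0.0475). The call of Mmrn1 was lost without any of 7 of the 8 libraries, and that of Itgb1 was kept without each of them. In the other 28 the ranges of old and young libraries overlapped. The fitted median over all 584 genes was -0.11 (log2), 0.32 below that of plain CPM.

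Several of the genes that passed are known from plasma cells, granulocytes and basophils. Igha, the heavy chain of immunoglobulin A, stood at 3251 and 2144 CPM in young and 97 and 49 in old females, and 1776 and 489 in young and 955 and 103 in old males (log2 fold change -3.39 ± 0.49 SE, edgeR adjusted p = 4.42e-09). It was found in 192 of 305 young members (63.0%) and in 10 of 93 old members (10.8%), 5 of which came from the old male femur library, where it was found in 50% of 10 members. Camp, which encodes the granulocyte peptide cathelicidin, stood at 1696 and 1883 CPM in young and 193 and 147 in old females, and 465 and 177 in young and 136 and 0 in old males (-3.08 ± 0.62, edgeR adjusted p = 0.000120). Leaving out 1 library at a time gave -4.49 to -2.78 for Igha and -5.11 to -2.64 for Camp, in both the lowest without the old male femur library. In females both old libraries lay far below both young ones for these 2 genes, and in males the ages lay closer together. Prss34, a basophil protease gene, had 42 UMIs in young and 0 in old females, which is at least 9.23-fold lower against a floor of 3 counts over the group, and 4 and 0 UMIs in males, which allows no fold. Jchain, Apoe (apolipoprotein E), F13a1 (the A chain of clotting factor XIII), Zfand3, Serinc3 and Lamp1 also passed, with log2 fold changes from -2.98 to -1.98 that moved widely with single libraries. The change reached -5.98 for Apoe and -4.18 for Serinc3 without the old male tibia library, -4.76 for F13a1 and -4.49 for Lamp1 without the old male femur library, and -4.35 for Jchain and -4.07 for Zfand3 without the old female femur library. The call was lost without any of 5 libraries for F13a1 and Lamp1, 4 for Serinc3, 3 for Zfand3 and 7 for Prss34.

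The platelet list genes that passed for age were Nrgn, Thbs1, Itga6, Srgn, Mmrn1 and F13a1, the last of which stood on the monocyte and macrophage list too. Nrgn stood at 4841 and 7453 CPM in young and 2060 and 977 in old females, and 3453 and 6482 in young and 3821 and 5259 in old males (log2 fold change -1.30 ± 0.35 SE, edgeR adjusted p = 0.00770). Thbs1 stood at 1307 and 1783, 322 and 488, 980 and 3221, and 2047 and 1134 CPM in the same order (-1.46 ± 0.40, edgeR adjusted p = 0.00955). Itga6, which encodes the α6 subunit of the laminin receptor, stood at 1555 and 2144, 354 and 391, 1421 and 2786, and 3412 and 1340 CPM (-1.35 ± 0.39, edgeR adjusted p = 0.0175). Old females lay below all 6 other libraries for these 3 genes, while old males lay among the young ones for Nrgn and Thbs1 and on both sides of them for Itga6. Srgn, which encodes the granule proteoglycan serglycin, and Fth1, with 3746 and 6431, 837 and 928, 2951 and 5463, and 4776 and 5259 CPM (-1.38 ± 0.36, edgeR adjusted p = 0.00595), likewise had old females lowest and old males among the young ones. These calls were lost without any of 2 libraries for Nrgn, 5 for Thbs1, 4 for Itga6, 3 for Fth1 and 7 for Srgn, and Thbs1 stood at -0.97 without the young male tibia library. With members limited to 5 or more rule genes, the age test called 1 gene, and 11 of the 30 genes had enough counts to be tested. Srgn was among these and its change turned positive, as given with the alternatives.

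The counts and medians of the gene lists for age were as follows. Of 24 receptor genes, 8 were tested and 1 was lower (median log2 -0.78), and of 20 granule genes, 14 were tested and 5 were lower (median -0.96). Of 18 cytoskeleton genes, 17 were tested and 0 passed (median -0.23), and the same held for 8 signalling genes (median 0.04) and 7 megakaryocyte transcription factor genes (median 0.19). Of 28 nuclear genes of electron transport, 17 were tested and 0 passed (median 0.25). These counts stand beside 5.14% of all genes called and these medians beside -0.11 for all genes tested, and a count of 0 says only that no change was detected at this depth.

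**Figure D5:**
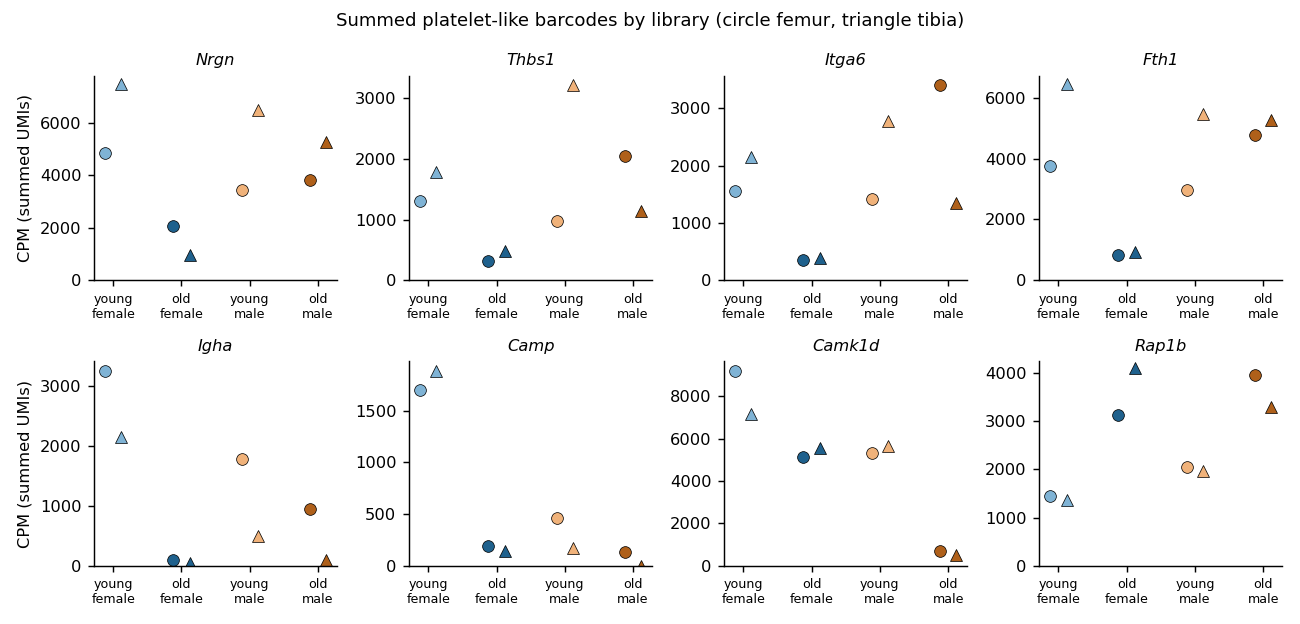
CPM in summed platelet-like barcodes (y axis, from 0) of 8 genes by group (x axis). Each point is 1 library, circles femur and triangles tibia. Igha and Camp are highest in young females, Nrgn, Thbs1, Itga6 and Fth1 are lowest in old females, and Camk1d is lowest in old males at 682 and 516 CPM.

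Within each sex, the age comparison sets 1 pool against 1 pool. In females 70 of 584 genes passed (12.0%), 27 higher and 43 lower in old. The higher genes included the cytoskeleton genes Tuba4a, an α-tubulin gene, and Cfl1 (cofilin), and Rap1b, which stood at 1449 and 1362 CPM in young females and 3122 and 4103 in old females. Of 17 cytoskeleton genes tested, 2 passed. Platelet lists held 7 of the 70 from 54 tested genes, 3 higher and 4 lower, the lower ones being Itga6, Nrgn, Srgn and Thbs1. Granulocyte, B and plasma cell and erythroid lists held 9, all lower, from 15 tested genes. In males 7 genes passed (1.20%), 0 higher and 7 lower in old, namely Rn18s-rs5, Camk1d, Cavin2, Cdk8, Cmss1, Itgb1 and Tpm4. All 7 were lower in plain CPM too. The median over all 584 genes in males was -0.25 (log2) in the fit and 0.36 in plain CPM, so the scaling shifted the fit towards lower values. Camk1d, a calcium- and calmodulin-dependent kinase gene, stood in males at 5339 and 5640 CPM when young and at 682 and 516 when old (log2 fold change -3.80, edgeR adjusted p = 1.79e-07), and at 9223 and 7152 in young and 5117 and 5569 in old females. Tpm4, a tropomyosin gene of the platelet cytoskeleton, stood at 2070 and 3737 CPM in young and 1638 and 722 in old males. The ages did not overlap for Camk1d in either sex, which with 2 libraries against 2 held for 42.0% of the tested genes in males and 60.8% in females. Without the ribosomal RNA features the male comparison called 1 gene. Leaving out 1 library, the calls in males were kept throughout for Camk1d and Rn18s-rs5, and were lost for Tpm4 and Itgb1 without any of 7 libraries. The change of Cdk8 went from -3.24 to -8.73 and that of Cmss1 from -1.87 to -3.19 without the old male tibia library. In females the calls of Cfl1 and Rap1b were lost without any of 6 and 5 libraries, and Tuba4a went from 2.62 to 3.86 without the young female tibia library.

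The age effect differed between the sexes for 61 of 584 genes (10.4%) by an interaction term in edgeR, 21 with a higher and 40 with a lower effect in males. Rn18s-rs5 rose in old females (log2 fold change 1.62) and fell by 2.75 on the log2 scale in old males. Its call in females was lost without any of 4 libraries, and its call in males was kept throughout. Immunoglobulin genes were among those with a higher effect in males: Igkc stood at 5442 and 3506 CPM in young and 451 and 147 in old females, and 5596 and 1848 in young and 4230 and 9590 in old males. The old female libraries were far below the others, and the old male libraries were not. Of 17 cytoskeleton genes tested, 3 had a lower effect in males, Tln1 (talin), Tpm4 and Tuba4a, whose calls were lost without any of 6, 5 and 2 libraries. In this comparison too each sex and age is 1 pool.

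Between the sexes, 19 of 584 genes passed (3.25%), 17 higher and 2 lower in males. Gp5 stood at 177 and 220 CPM in young and 97 and 98 in old females, and 343 and 978 in young and 546 and 722 in old males (log2 fold change 2.18 ± 0.54 SE, edgeR adjusted p = 0.00386). Tubb2a, a β-tubulin gene, stood at 141 and 180, 161 and 244, 318 and 448, and 1365 and 1547 CPM in the same order (2.02 ± 0.48, edgeR adjusted p = 0.00289). For both genes all 4 male libraries lay above all 4 female ones, as they did for H2bc4 and Gas2l1. Groups did not overlap in either direction for 2.40% of the genes tested. Ighm (2.13 ± 0.38, edgeR adjusted p = 1.08e-05), Igkc, Jchain, Itga6 and Ctla2a also passed as higher in males, and Camk1d and Ddx5, an RNA helicase gene, as lower. Leaving out 1 library, the calls of Gp5, Tubb2a, H2bc4, Gas2l1 and Jchain were lost without any of 6, 4, 5, 7 and 7 libraries, and those of Itga6 and Ctla2a without any of 6 each. Ighm ranged from 1.35 without the young male femur library to 2.63, Ctla2a stood at 0.81 without the young male tibia library, and Ddx5 ranged from -4.40 without the old male tibia library to -0.84 without the old female femur library. Summed to the 4 pools, the test called 0 genes.

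The difference in age effect between members and other barcodes passed the test for 1 gene, and a miss does not show that the effects were alike. Set against retained platelet-gene cells in the same fit, 1 of 1777 genes (0.0563%) had an age effect that passed, Hba-a1, the α-globin gene, with a log2 difference of 3.32 ± 0.70 SE (edgeR adjusted p = 0.0156), and 126 had an unadjusted p under 0.05. Hba-a1 stood at 3428 and 2164 CPM in young and 97 and 1758 in old females, and 343 and 1074 in young and 2593 and 309 in old males, and the old and young libraries overlapped. The call was lost without any of 3 libraries, with 2.34 without the old male femur library. Its UMIs came from few members, with 17 of 19 from 1 of 10 barcodes in the old male femur library, and with 36 UMIs in 3 of 26 barcodes, 19 of them in 1, in the old female tibia library. Set against marker-free barcodes, 0 of 515 genes passed in edgeR (0%), 41 had an unadjusted p under 0.05, and DESeq2 called 2. The 515 include 6 rule genes, which are at 0 in marker-free barcodes by definition and could not pass. Both comparisons share the members' libraries, so their results are not independent.

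Of the receptor genes named by the study, Itga2b stood at 2261 and 2424 CPM in young and 933 and 2980 in old females, and 1923 and 4335 in young and 1910 and 1444 in old males. It did not pass for age (log2 fold change -0.86 ± 0.37 SE, edgeR adjusted p = 0.154), and the groups overlapped. With no mitochondrial limit it passed at -0.97, and it passed at -1.08 when the young male femur library was left out. Of the 61 UMIs of Itga2b in the old female tibia library, the highest of the old libraries, 41 came from 1 of 26 barcodes. Dropping this old female tibia library moved the age change of Itga2b to -1.50 on the log2 scale. That was its lowest value in the fits lacking a single library. Its highest was -0.58, reached when the young male tibia sample was dropped. P2ry12, the receptor for ADP, had 57 UMIs in all members, F2r, the thrombin receptor PAR-1, had 39, and Htr2a, a serotonin receptor, had 11, which was too few for the test. Of the 11 UMIs of Htr2a, 6 came from 5 of the 42 members of the old female femur library and 0 from the old female tibia library.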

How the data were processed

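The authors deposited 8 matrices of UMI counts per gene and barcode. Per the labels, the submitters' processing notes name Cell Ranger 7.2.0, Seurat 5 and the builds mm10 and GRCm39. The study's supplementary methods give mm10 for the alignment, and why the notes name GRCm39 too was not settled here. The deposited names of the femur matrices read fibula, and the labels were followed. The members and gene lists were chosen with earlier results of these data known.

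Raw counts of each class were summed per library. They were tested with edgeR 4.0.16 (quasi-likelihood, filterByExpr, TMM, Benjamini-Hochberg adjustment, threshold 0.05) in R 4.3.3, with a mean per age and sex. DESeq2 1.42.0 was an alternative. Shares were compared by exact permutation tests in Python 3.11.15 with scipy 1.17.1. Ratios between classes used CPM with a prior count of 0.5. Barcodes were thinned to 500 UMIs with a fixed seed. The edgeR fit was tested on simulated data. Doublets were not called, and free RNA was not removed.

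Genes named were the rule genes, the 10 largest called changes in each direction averaging 20 CPM or more and, for age, of one sign in both sexes and bones, the 10 largest ratios in each direction, the 3 most abundant genes of each list, and 4 receptor genes. For each interaction they were the 5 largest called in each direction. Other genes named in the text were chosen after their values were seen. Alternatives covered normalization, filters, depth, the rule and each library left out.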

Additional observations from a re-analysis of the deposited data

Results flagged for a closer look

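Of 52 groups of 4 libraries tested for a library far from the others, 3 had one, and chance gives about 1 in 20. Among old libraries, interferon genes took 0.437% of members' UMIs in the male femur library and 0.0708% to 0.124% in the others. Of the 32 UMIs behind that value, 27 came from 1 of 10 barcodes, 14 of them of Rsad2, an antiviral gene. In the same library granulocyte genes took 0.914%, against 0.244% to 0.277% in the other old libraries. There, 19 of the 33 UMIs of S100a8 and 14 of the 28 of S100a9 were the most found in 1 of 10 barcodes. T and NK cell genes took 0.0206% in the old male tibia library, which is 2 of 9698 UMIs, and 0% to 0.00322% in the others.

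The age effect differed between males and females for 10 genes with the largest interaction terms in edgeR (log2, males minus females). It was higher in males for H2-Aa (8.31) and Cd74 (7.11), genes of MHC class II, for Gata2 (6.00), a transcription factor gene of progenitors, mast cells and megakaryocytes, for Ly6e (5.12) and for Cd81 (4.92). It was lower in males for Khdrbs1 (-7.75), Timp3 (-5.72), Rida (-5.12), Lcp2 (-4.99) and Ccnd2 (-4.68). Cd74 stood at 1272 and 1523 CPM in young and 32 and 0 in old females, and 392 and 149 in young and 273 and 1547 in old males. These terms depend on the prior count where a group is at or near 0 counts, as for H2-Aa with 0 UMIs in old females and for Khdrbs1 with 0 in old males, against 22 in young males, too few to give a fold. Each group is 1 pool. Leaving out 1 library, the call was kept throughout for Timp3 alone, and was lost without any of 7 libraries for Khdrbs1, 6 for Ccnd2, 5 for Lcp2, 4 each for Ly6e and Rida, 2 each for Cd81 and H2-Aa, and 1 each for Cd74 and Gata2. Without the old male tibia library Timp3 stood at -9.61, Ccnd2 at -8.56 and Cd74 at 5.08, and without the old male femur library Lcp2 stood at -8.88. Without the old female femur library Cd74 stood at 9.89, Gata2 at 8.73, Cd81 at 7.72 and Ly6e at 3.93. Rida stood at -7.30 without the young female tibia library, and Ly6e at 7.81 without the old female tibia library. Without the young male femur library Lcp2 stood at -3.47 and Ccnd2 at -3.28.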

How the results depend on the processing

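The number of genes called depended on several choices, whose causes were not tested. In the order age, age in females, age in males, age by sex and sex, DESeq2 called 13, 43, 2, 29 and 6 genes, and members with 5 or more rule genes gave 1, 3, 1, 4 and 2. Without a filter on low counts, 24 genes were called in females, 16 for age by sex and 3 for sex. Without the mitochondrial limit the counts were 85 for age, 151 in females, 12 in males and 43 for sex. Thinning to 500 UMIs gave 11 in males and 11 for sex. Sums per pool gave 0 for age and 0 for sex. Leaving out the ribosomal RNA features, chosen after seeing the data, gave 19 for age, 1 in males and 10 for sex. For the age effect against retained platelet-gene cells, upper-quartile normalization called 5 genes, and 0 were called with 5 or more rule genes or without ribosomal RNA features. DESeq2 called 2 genes against marker-free barcodes.

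The lower share of members in males was turned to 2.90 points higher of low-gene barcodes, to 4.70 with these thinned to 500 UMIs, and to 0.0621 with 5 or more rule genes. Of all barcodes at 500 UMIs, a base added after seeing the data, the old-minus-young difference was -0.502 (exact permutation p = 0.0286, the smallest possible, adjusted p = 0.0857, n = 4 each). Per 100 retained platelet-gene cells, also added, tibia minus femur was -24.8 and males stood at 75.9 against 126.6 in females (exact permutation p = 0.0857, n = 4 each), the direction found over all barcodes. Without the mitochondrial limit, old minus young was 40.6 points for mitochondrial genes, -2.55 for ribosomal protein genes, 0.0814 for haemoglobin and -0.729 for rule genes, whose share the rule constrains. With 5 or more rule genes it was -0.391 for ribosomal protein genes, 0.0231 for haemoglobin and 0.6997 for rule genes.

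When single libraries were dropped, one at a time, the counts ranged from 13 to 73 for age, 20 to 103 in females, 4 to 37 in males, 17 to 87 for age by sex, 3 to 57 for sex, 0 to 6 against retained cells and 0 to 0 against marker-free barcodes. The share ranged from -0.564 to -0.278 points for age, -0.529 to -0.209 for sex and -0.0492 to 0.357 for bone. Old-minus-young UMI shares ranged from -1.10 to 0.163 points (mitochondrial), 0.986 to 3.35 (ribosomal protein), -0.111 to -0.000134 (haemoglobin) and -0.236 to 0.166 (rule genes). With bone as a block, which pairs femur and tibia libraries across pools, 27 genes were called for age, all among the 30. Of 1038 alternatives for 60 gene comparisons, 59 of them called, 682 kept the direction and the side of the threshold, 352 lost the call and 2 gained it. Another 2 changed direction, both with 5 or more rule genes for age, where Itga2b stood at 0.15 and Srgn at 0.11. Of the 59 calls, 46 were lost without at least 1 library.

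Old males gave 25 members and 17026 UMIs. The size of change detectable there was not measured, so a miss does not show that a gene was unchanged.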
